A study of Mus musculus with 4 samples.

Results

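In mouse lung, 8 genes of drug and foreign-compound metabolism outside the cytochrome P450 family were followed: the flavin monooxygenase genes Fmo1, Fmo2 and Fmo5, the carboxylesterase gene Ces1d, the epoxide hydrolase gene Ephx1, the aldehyde oxidase gene Aox3 and the sulfotransferase genes Sult1a1 and Sult1d1. They were taken by name from the deposited table, where all 8 of 8 were found among 17691 genes. Wild-type C57BL/6 mice aged 6 to 8 weeks had been dosed intranasally with the buffer PBS or with bleomycin, which breaks DNA and provokes lung injury and fibrosis, and the labelled duration was 10 days. Both groups thus shared strain, genotype and age range, and 2 libraries of whole-lung RNA per group were analysed. Nothing in the labels ties each library to its own animal, so p-values cover only the spread among these libraries, and that spread may be technical.

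Foreign compounds are commonly handled in stages. Functionalizing enzymes first add or uncover a reactive group: flavin monooxygenases oxidize soft nitrogen and sulfur atoms, carboxylesterases and epoxide hydrolases split esters and epoxides, and aldehyde oxidases hydroxylate aldehydes and nitrogen-containing rings with a molybdenum cofactor. Conjugating enzymes such as sulfotransferases then attach a charged group, here sulfate from the donor PAPS, that makes the product easier to excrete. Fmo2 is known as the main flavin monooxygenase of lung in most mammals, and Ces1d is also known as a triglyceride hydrolase of fat and liver.

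Values are FPKM, which divides fragment counts by transcript length and by the library's total, so levels of different genes can be compared. Depth was estimated, from the spacing of the lowest values, at 17000000 to 17800000 fragments per library. Lung markers were abundant in all 4 libraries, with Sftpc, the surfactant protein C gene of alveolar type II cells, at 7913 FPKM or more. The groups differed in Y-linked transcripts: Eif2s3y stood at 26.4 and 28.9 FPKM in PBS lungs and was listed at 0 in both bleomycin libraries. Sex and treatment therefore cannot be told apart in any result here.

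All 8 genes had a lower mean with bleomycin, and 6 of them passed the test: Fmo1, Fmo2, Fmo5, Ces1d, Aox3 and Sult1a1. None was called higher, and Ephx1 and Sult1d1 did not pass. The test was limma on log2(FPKM + 1) over the 12986 genes whose mean reached 1 FPKM, with Benjamini-Hochberg adjustment over all of them and a threshold of 0.05. Over all tested genes, 7.69% were called lower and 8.59% were called higher. The median log2 fold change of the 8 genes was -1.43, against -0.02 over all tested genes. In all 8 the 2 groups did not overlap, as in 35% of all tested genes in that direction. Sult1d1 passed the filter on low values through the PBS group, since its bleomycin mean lay under 1 FPKM. Without PBS replicate 1, or without PBS replicate 2, limma called 0 genes in the whole table, and 6 or 7 of the 8 genes had an unadjusted p under 0.05, so each call rests on having both PBS libraries. Fewer cells of a type and less RNA per cell cannot be told apart in whole-lung RNA.

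**Figure D1:**
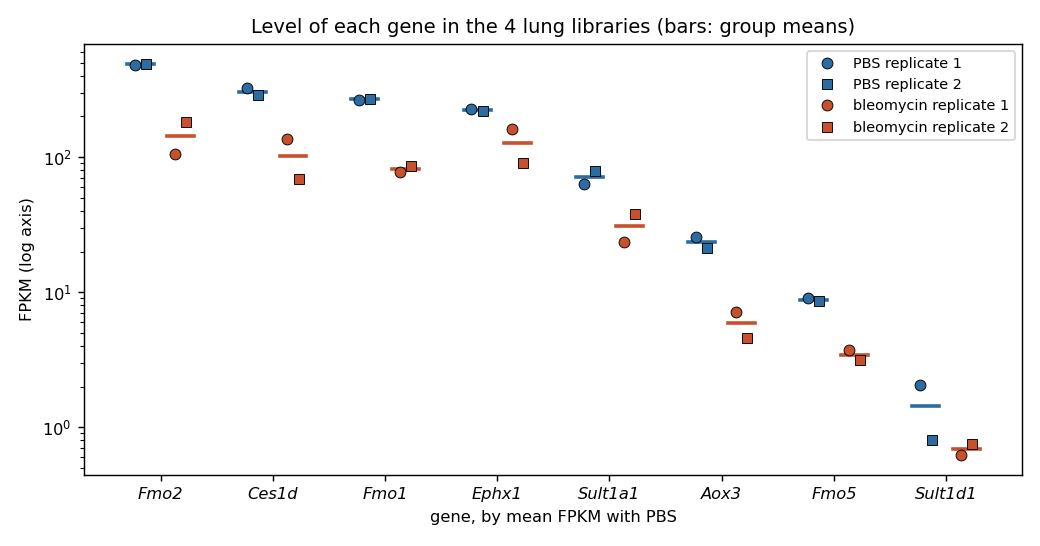
FPKM on a log axis for each of the 8 genes, ordered by the PBS mean. Points are single libraries (circles replicate 1, squares replicate 2), short bars are group means of 2 libraries. Every bleomycin point lies below both PBS points of the same gene, narrowly for Sult1d1 (0.81 against 0.75 FPKM), and the bleomycin points of Fmo2, Ces1d and Ephx1 lie far apart.

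Fmo2 (gene 55990, GRCm38.p6 chromosome 1, 162874317 to 162898758) was the most abundant of the 8 genes. It stood at 482 and 493 FPKM in the PBS libraries and at 106 and 183 FPKM in the bleomycin libraries. The PBS pair was close together, while the bleomycin pair differed 1.73-fold, with replicate 2 the higher. From 488 ± 7.60 to 144 ± 54.5 FPKM (SD, n = 2; each mean below likewise covers 2 libraries), its log2 fold change was -1.80 ± 0.27 (SE, limma adjusted p = 0.0199). Among all genes of the table, its mean level went from place 116 with PBS to place 477 with bleomycin.

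Fmo1 (gene 14261, chromosome 1, 162829561 to 162866610), its neighbour on the chromosome, codes for an enzyme also known from liver and kidney. Its levels were 264 and 271 FPKM in PBS lungs and 77.4 and 86.0 FPKM in bleomycin lungs. Both pairs were tight and far apart from each other. The change, from 268 ± 5.16 to 81.7 ± 6.08 FPKM, had the smallest adjusted p of the 8 genes (log2 fold change -1.70 ± 0.09, limma adjusted p = 0.00495).

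Fmo5 (gene 14263, chromosome 3, 97609938 to 97655287), which lies apart from the other flavin monooxygenase genes and codes for an enzyme known to act on ketones, was much scarcer. It stood at 9.0 and 8.59 FPKM in PBS lungs and at 3.73 and 3.12 FPKM in bleomycin lungs. Replicates lay close together in both groups, and the log2 fold change was -1.15 ± 0.12 (limma adjusted p = 0.0101).

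Among other genes of the family, Fmo4 was at 2.0 and 1.85 FPKM in PBS lungs and 1.12 and 1.63 FPKM in bleomycin lungs, and did not pass (limma adjusted p = 0.246). Fmo6 was at 0.21 FPKM or less in every library.

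Summed over Fmo1, Fmo2 and Fmo5, flavin monooxygenase transcripts came to 755 and 773 FPKM in PBS lungs and to 187 and 272 FPKM in bleomycin lungs. Fmo2 made up 63.9% and 63.8% of that sum in PBS lungs and 56.6% and 67.2% in bleomycin lungs. For Fmo1 the share was 34.9% and 35.1% in PBS lungs and 41.5% and 31.6% in bleomycin lungs. The sum was thus lower in both bleomycin libraries, while the PBS shares of Fmo2 and Fmo1 lay inside the range of the bleomycin pair. The ratio of Fmo2 to Fmo1 was 1.83 and 1.82 in PBS lungs and 1.36 and 2.12 in bleomycin lungs (exact two-sided permutation p = 1, where 2 against 2 cannot give less than 0.333). The ratios of Fmo2 to Fmo5 and of Sult1a1 to Sult1d1 also gave an exact permutation p of 1. The ratio of Fmo1 to Fmo5 was 29.3 and 31.6 in PBS lungs and 20.7 and 27.6 in bleomycin lungs (exact permutation p = 0.333, the smallest possible, with 4 ratios tested, so it cannot pass after adjustment).

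**Figure D2:**
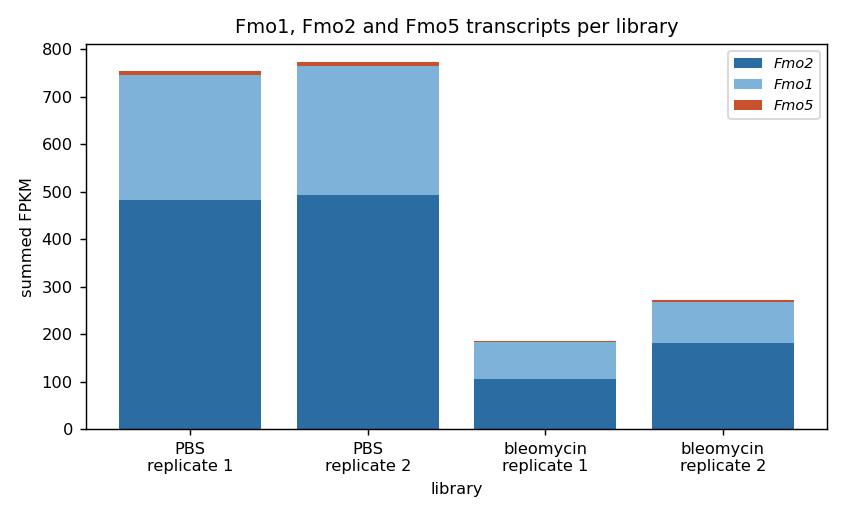
Summed FPKM of Fmo1, Fmo2 and Fmo5, one bar per library, stacked by gene. The PBS bars reach 755 and 773 FPKM and the bleomycin bars 187 and 272 FPKM, and Fmo2 with Fmo1 fill most of every bar.

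Because Fmo2 and Aox3 had the largest falls of the 8 genes on the log2 scale, the first 250 bases of a window from the RefSeq promoter table (GRCm38.p6) are shown for each, 5′ to 3′ along the gene's strand. The table gives 2 windows for Fmo2, of which the first is shown, and 1 for Aox3. Capitals mark matches on either strand to 3 motifs: GCGTG, the core bound by the aryl hydrocarbon receptor with its partner, TGACNNNGC, the core bound by NRF2 with a small Maf protein, and TTGCNNAA, the form bound by C/EBP factors.
Fmo2, chr1:162898759-162899008, minus strand: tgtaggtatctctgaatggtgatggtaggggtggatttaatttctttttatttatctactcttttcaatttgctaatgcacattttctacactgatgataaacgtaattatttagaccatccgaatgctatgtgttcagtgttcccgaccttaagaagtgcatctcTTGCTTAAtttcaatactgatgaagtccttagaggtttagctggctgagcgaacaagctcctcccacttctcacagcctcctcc
Aox3, chr1:58112886-58113135, plus strand: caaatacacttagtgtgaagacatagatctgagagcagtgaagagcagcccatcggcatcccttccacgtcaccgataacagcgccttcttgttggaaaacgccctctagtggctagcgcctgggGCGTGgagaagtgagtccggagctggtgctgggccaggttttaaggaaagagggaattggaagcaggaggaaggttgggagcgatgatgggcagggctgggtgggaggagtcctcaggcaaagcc

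The Fmo2 window shown holds TTGCNNAA, as does the second Fmo2 window (chromosome 1, 162898494 to 162898743), and the Aox3 window holds GCGTG. Of the 8 genes, 6 matched the promoter table, and Fmo1 and Ces1d did not. Over the windows of those 6, GCGTG was found for Aox3 and Sult1d1, TTGCNNAA for Fmo2 and TGACNNNGC for 0 genes. Among all 32851 windows of the same length, 28.2% hold GCGTG, 9.6% hold TTGCNNAA and 10.2% hold TGACNNNGC. Of the genes that code for the factors, chosen after their values were seen, Ahr stood at 15.5 and 13.9 FPKM in PBS lungs and 15.8 and 11.6 FPKM in bleomycin lungs. Nfe2l2, which codes for NRF2, was at 86.7 and 92.0 FPKM in PBS lungs and 107 and 89.7 FPKM in bleomycin lungs. Cebpa was at 46.4 and 46.0 FPKM in PBS lungs and 58.7 and 38.6 FPKM in bleomycin lungs. For each of these 3 the groups overlapped, and none passed the test (limma adjusted p = 0.662, 0.455 and 0.900).

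Ces1d (gene 104158, chromosome 8, 93166072 to 93197804) was second in level with PBS. It stood at 325 and 287 FPKM in PBS lungs and at 136 and 68.6 FPKM in bleomycin lungs. Bleomycin replicate 1 was 1.98 times replicate 2, yet both were below the PBS libraries. From 306 ± 26.9 to 102 ± 47.8 FPKM, the log2 fold change was -1.65 ± 0.33 (limma adjusted p = 0.0373). With no filter on low values the call was lost (adjusted p = 0.0767 by limma).

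Ces1d lies in a cluster of related genes on chromosome 8, so its sequence was compared with the transcripts of all other genes. Of its runs of 50 bases, 1.28% also occur in Ces1b, Ces1g or Ces1f, and the longest run shared within its family, 66 bases in common with Ces1b, is shown because a fragment inside it could be counted for either gene. It lies in coding exon 9 of 14, GRCm38 chr8:93178067-93178132, minus strand.
Ces1d and Ces1b: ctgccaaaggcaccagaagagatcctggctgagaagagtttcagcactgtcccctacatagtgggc

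Ces1b was at 0.74 FPKM or less in every library, far below Ces1d, and the other sharing genes, Ces1f and Ces1g, were at 5.18 FPKM or less. No run of 50 bases of Fmo1, Fmo2, Aox3 or Sult1d1 was found in another gene's transcripts. For Sult1a1 7.72% of such runs also occur in the predicted gene Gm6939, for Ephx1 1.89% occur in Gm36961, and for Fmo5 0.49% occur elsewhere, including a repeat of T and C.

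Of the 23 esterase genes asked for, 20 were in the table and 10 were tested, of which 0 rose, 7 fell and 3 did not pass. Of the 7 falls, 3 (Ces1c, Ces1e and Ces1f) had a bleomycin mean under 1 FPKM and passed the filter on low values only through the PBS group. The median log2 fold change of the 10 was -1.43. Pon1, a paraoxonase that circulates on lipoproteins, went from 30.7 ± 7.08 to 5.97 ± 0.60 FPKM (log2 fold change -2.17 ± 0.18, limma adjusted p = 0.00741). Ces1c, a carboxylesterase secreted into plasma, went from 3.54 ± 0.25 to 0.33 ± 0.13 FPKM (-1.77 ± 0.15, limma adjusted p = 0.00750). Ces1e went from 5.07 ± 1.20 to 0.97 ± 0.32 FPKM (-1.62 ± 0.21, limma adjusted p = 0.0145). Pon2, a paraoxonase that stays inside cells, lay the other way, at 61.2 ± 1.54 FPKM in PBS lungs and 78.4 ± 7.33 FPKM in bleomycin lungs, and did not pass (limma adjusted p = 0.0760).

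Ephx1 (gene 13849, chromosome 1, 180989556 to 181017569), the microsomal epoxide hydrolase, was at 229 and 221 FPKM in PBS lungs and at 162 and 90.2 FPKM in bleomycin lungs. Both bleomycin libraries were below both PBS libraries, but they differed 1.80-fold from each other. Its log2 fold change of -0.89 ± 0.29 did not pass (limma adjusted p = 0.101). Without bleomycin replicate 1 the log2 fold change was -1.31 and without replicate 2 it was -0.47. Both passed, since the spread then came from the tight PBS pair alone and the lone bleomycin library is assumed to vary like it. Ephx2, the soluble epoxide hydrolase, was scarce at 1.87 ± 0.02 FPKM in PBS lungs and 2.41 ± 0.01 FPKM in bleomycin lungs (limma adjusted p = 0.207). Ephx3 and Ephx4 lay below the filter.

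Aox3 (gene 71724, chromosome 1, 58113135 to 58202221) had the largest fall of the 8 genes, with a level of 25.7 and 21.4 FPKM in PBS and of 7.16 and 4.59 FPKM in bleomycin libraries. The groups were well separated, with 25.0% of the PBS mean left. The log2 fold change from 23.5 ± 3.07 to 5.88 ± 1.82 FPKM was -1.86 ± 0.21 (limma adjusted p = 0.0123), and 0.554% of tested genes fell further. Its neighbour Aox1, also an aldehyde oxidase gene, went from 12.5 ± 1.51 to 5.43 ± 0.49 FPKM (-1.07 ± 0.13, limma adjusted p = 0.0130). Xdh, the xanthine oxidoreductase gene, which codes for another hydroxylase with the same cofactor, went from 100.1 ± 2.14 to 52.7 ± 12.3 FPKM (-0.93 ± 0.17, limma adjusted p = 0.0304).

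Of the 10 genes listed for molybdenum hydroxylases and their cofactor all were in the table and 8 were tested, of which 0 rose, 3 fell and 5 did not pass. The 3 falls were Aox3, Aox1 and Xdh, and none of the genes that make the cofactor passed. Mocs2 was at 28.2 ± 2.44 FPKM in PBS lungs and 28.3 ± 1.71 FPKM in bleomycin lungs (limma adjusted p = 0.989). Mocos, which adds the sulfur that aldehyde oxidases and xanthine oxidoreductase need, was at 4.47 ± 0.31 FPKM in PBS lungs and 4.47 ± 0.25 FPKM in bleomycin lungs (limma adjusted p = 0.997). These p-values do not show that the levels were the same.

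Sult1a1 (gene 20887, chromosome 7, 126672865 to 126690443), which codes for a phenol sulfotransferase, was at 62.8 and 79.4 FPKM in PBS lungs and at 23.4 and 38.1 FPKM in bleomycin lungs. In both groups replicate 2 was the higher, and the groups did not overlap. The log2 fold change from 71.1 ± 11.8 to 30.8 ± 10.4 FPKM was -1.21 ± 0.26 (limma adjusted p = 0.0418). The call was lost with no filter on low values (adjusted p = 0.0816 by limma) and without the variance trend (adjusted p = 0.0504 by limma).

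Sult1d1 (gene 53315, chromosome 5, 87554650 to 87569006), whose enzyme is known for sulfating catecholamines and phenols in mice, was barely present. Its levels were 2.06 and 0.81 FPKM in PBS lungs and 0.62 and 0.75 FPKM in bleomycin lungs. At the estimated depth these are about 85 and 34 fragments with PBS and 26 and 32 with bleomycin. A single PBS library stood apart, and the log2 fold change of -0.48 ± 0.28 did not pass (limma adjusted p = 0.289). Without PBS replicate 1 it was -0.10.

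Of the 15 sulfation genes asked for, 13 were in the table and 7 were tested, of which 0 rose, 2 fell and 5 did not pass. The second fall was Sult5a1, from 15.6 ± 1.75 to 9.03 ± 0.03 FPKM (log2 fold change -0.72 ± 0.11, limma adjusted p = 0.0202). The PAPS synthase gene Papss1 was at 22.7 ± 0.78 FPKM in PBS lungs and 23.5 ± 0.18 FPKM in bleomycin lungs. The second synthase gene, Papss2, was at 18.4 ± 3.32 FPKM in PBS lungs and 11.3 ± 2.11 FPKM in bleomycin lungs (limma adjusted p = 0.0736).

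**Figure D3:**
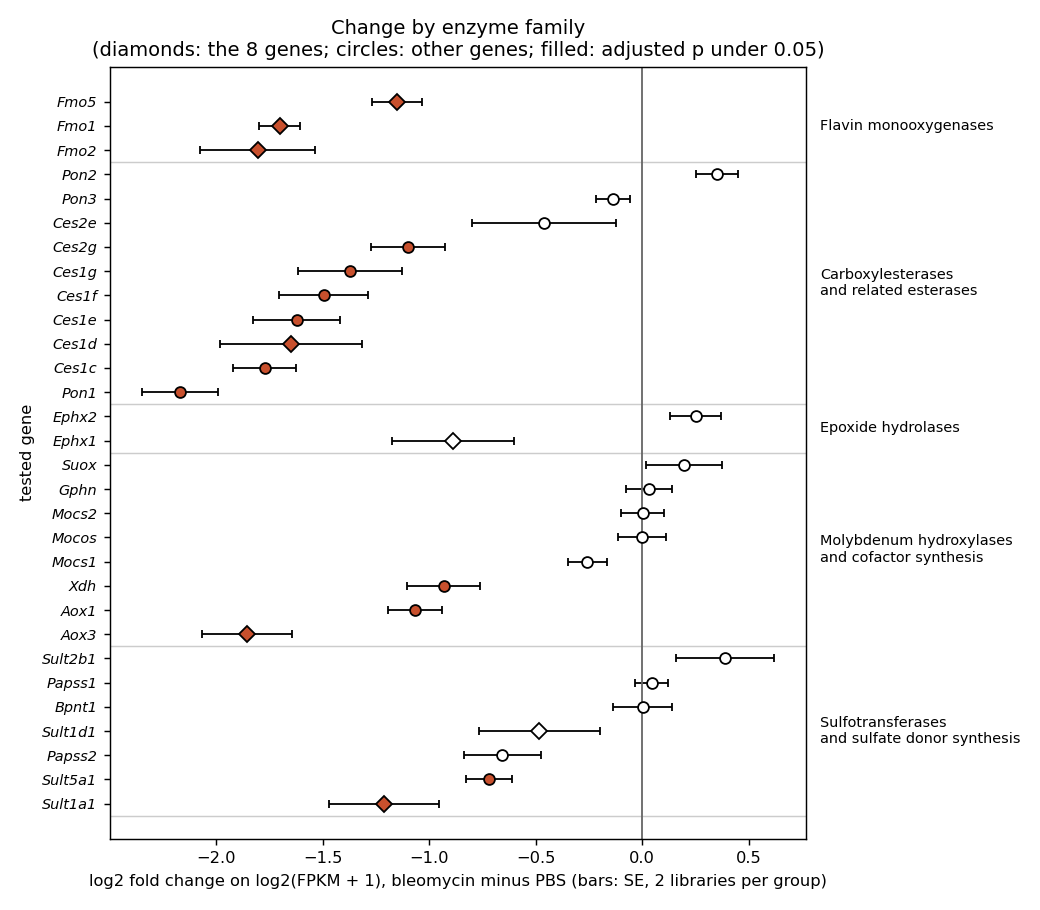
Log2 fold change, bleomycin minus PBS, with its standard error for Fmo1, Fmo2 and Fmo5 and every tested gene of the other 4 enzyme families, on the log2(FPKM + 1) scale. Diamonds are the 8 genes, circles the others, and filled symbols passed limma at an adjusted p under 0.05. The filled symbols all lie left of 0, from -2.17 for Pon1 to -0.72 for Sult5a1.

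Among 23 further oxidoreductases and transferases, 22 were tested, of which 0 rose, 8 fell and 14 did not pass. Cbr2, a carbonyl reductase highly expressed in mouse lung, went from 4535 ± 582 to 848 ± 436 FPKM (log2 fold change -2.51 ± 0.40, limma adjusted p = 0.0222). Aldh1a1, a retinaldehyde and aldehyde dehydrogenase gene, went from 789.5 ± 43.8 to 247 ± 59.5 FPKM (-1.69 ± 0.19, limma adjusted p = 0.0121). Aldh3a1 changed by -1.23 ± 0.22 and Por, the electron donor of microsomal P450 enzymes, by -1.05 ± 0.14 on the log2 scale (limma adjusted p = 0.0276 and 0.0168).

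Glucuronidation, which competes with sulfation for phenols, held 0 rises, 0 falls and 5 genes that did not pass, of 18 in the table (1 higher and 1 lower by limma at an unadjusted p under 0.05). Its most abundant genes make the sugar donor: Ugp2 was at 28.1 ± 1.88 FPKM in PBS lungs and 30.3 ± 3.12 FPKM in bleomycin lungs, and Ugdh at 17.9 ± 0.06 FPKM in PBS lungs and 22.6 ± 1.66 FPKM in bleomycin lungs. Ugdh did not pass (log2 fold change 0.32, limma adjusted p = 0.0751), but was called higher under each of 3 other scalings. Of 16 xenobiotic receptors and regulators 10 were tested, of which 0 rose, 2 fell and 8 did not pass. The falls were Foxa1, an epithelial transcription factor gene, from 9.13 ± 0.85 to 5.87 ± 0.29 FPKM, and Nr3c1, the glucocorticoid receptor gene, from 31.6 ± 0.51 to 21.5 ± 2.31 FPKM (limma adjusted p = 0.0350 and 0.0325).

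Over all of these lists without the 8 genes, 61 of 102 genes in the table were tested and 41 lay below the filter. Of the 61, 0 rose (3 were higher at an unadjusted limma p under 0.05), 19 fell and 42 did not pass, so that 31.2% were called lower, with a median log2 fold change of -0.28. Of the 61, the 3 esterase genes Ces1c, Ces1e and Ces1f passed the filter only through the PBS group. As for the 8 genes, each of the 19 calls rests on having both PBS libraries. Counts with 1 library left out are not compared here, since the spread then came from the other group's pair alone.

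Markers of several cell types moved with the 8 genes, and their part in these falls was not tested. Of 7 resident alveolar fibroblast markers 6 fell and 1 did not pass, and their summed level was 2924 and 3512 FPKM in PBS lungs and 620 and 462 FPKM in bleomycin lungs. Inmt, a methyltransferase gene of these fibroblasts, had a log2 fold change of -3.50 ± 0.33, and Fgfr4, a fibroblast growth factor receptor gene, one of -1.82 ± 0.22 (limma adjusted p = 0.00919 and 0.0131). Of 6 club cell markers 3 fell, 0 rose and 3 did not pass, with sums of 56630 and 42740 FPKM in PBS lungs and 19520 and 20130 FPKM in bleomycin lungs. Cyp2f2 and Scgb3a2 of that list changed by -2.06 ± 0.35 and -1.81 ± 0.31 on the log2 scale (limma adjusted p = 0.0254 and 0.0264). Of 6 ciliated cell markers 1 fell, Tppp3, with sums of 504 and 481 FPKM in PBS lungs and 226 and 97.2 FPKM in bleomycin lungs. Of 7 capillary endothelial markers 2 fell, Ednrb and Car4, with sums of 1229 and 1312 FPKM in PBS lungs and 933 and 915 FPKM in bleomycin lungs. Of 7 macrophage markers 4 rose and 0 fell, C1qa and Cd68 among the rises, with sums of 2742 and 3417 FPKM in PBS lungs and 5787 and 3004 FPKM in bleomycin lungs. Of 7 alveolar type II markers 1 rose, Napsa, and of 7 type I markers 1 rose, Pdpn, and 2 fell, Rtkn2 and Clic5, while none of 4 mesothelial markers passed. None of the markers was at 0 in all 4 libraries.

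Some of the 8 genes are also known from liver and fat, so markers of hepatocytes and adipocytes were read beside them. Of 11 hepatocyte markers 10 were tested and all 10 fell, with sums of 104 and 100.2 FPKM in PBS lungs and 12.7 and 7.43 FPKM in bleomycin lungs. Of these, 6 passed the filter only through the PBS group. Alb, the albumin gene, was at 14.4 and 14.2 FPKM in PBS lungs and 1.01 and 0.66 FPKM in bleomycin lungs, and Hamp, the hepcidin gene, at 13.1 and 11.2 FPKM in PBS lungs and 0.37 and 0.61 FPKM in bleomycin lungs. With PBS, Ces1d, Fmo1, Fmo2 and Ephx1 each stood above the sum of all 11 markers, while Sult1a1, Aox3, Fmo5 and Sult1d1 stood below it. These levels do not give the share of liver transcripts in any of the 8 genes, as no liver library was included. The part of liver or fat transcripts in the falls of the 8 genes was not tested. Nor was it tested for the other enzyme genes that fell, Pon1, Ces1c, Ces1e and Ces1f among them. Of 6 adipocyte markers 2 were tested and 1 fell, Cidec, from 8.54 ± 0.94 to 2.83 ± 0.06 FPKM. Adipoq, the adiponectin gene that defines fat cells, was at 0.70 and 1.10 FPKM in PBS lungs and 0.14 and 0.05 FPKM in bleomycin lungs, and Lep was at 0.02 FPKM or less in every library. Cfd of the same list was at 4.32 and 9.55 FPKM in PBS lungs and 3.79 and 0.12 FPKM in bleomycin lungs, and did not pass (limma adjusted p = 0.188). Ces1d stood at 306 FPKM in PBS lungs, and these levels do not give the share of fat transcripts in it.

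The 8 genes also differed in which bleomycin library was the lower. Ces1d, Ephx1, Aox3 and Fmo5 were higher in bleomycin replicate 1, by 1.98-fold, 1.80-fold, 1.56-fold and 1.20-fold. Fmo2, Sult1a1, Sult1d1 and Fmo1 were higher in replicate 2, by 1.73-fold, 1.63-fold, 1.21-fold and 1.11-fold. On the log2(FPKM + 1) scale the bleomycin pair differed by more than 0.5 for 5 of the 8 genes (Ces1d, Ephx1, Fmo2, Sult1a1 and Aox3), as for 12.4% of all tested genes.

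Marker sums differed between the same bleomycin libraries. The ciliated, macrophage and resident fibroblast sums given above were higher in bleomycin replicate 1. Lyz2 made up most of the macrophage sum, at 4992 and 1608 FPKM. Adgre1, Cd68 and C1qa were also higher in replicate 1, while Mrc1, Marco and Chil3 (316 against 1050 FPKM) were higher in replicate 2. Hepatocyte markers summed to 12.7 FPKM in replicate 1 and 7.43 FPKM in replicate 2, and adipocyte markers to 7.08 and 3.45 FPKM. Mesothelial markers summed to 85.2 FPKM in replicate 1 and 294 FPKM in replicate 2, and alveolar type I markers to 2921 and 4221 FPKM. The club cell sums differed little, but Scgb1a1 made up most of them, at 18857 FPKM in replicate 1 and 19751 FPKM in replicate 2. Every other club cell marker was higher in replicate 1, Scgb3a2 by 1.81-fold and Cyp2f2 by 1.72-fold. Whether these differences have a part in the spread of the 8 genes was not tested.

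**Figure D4:**
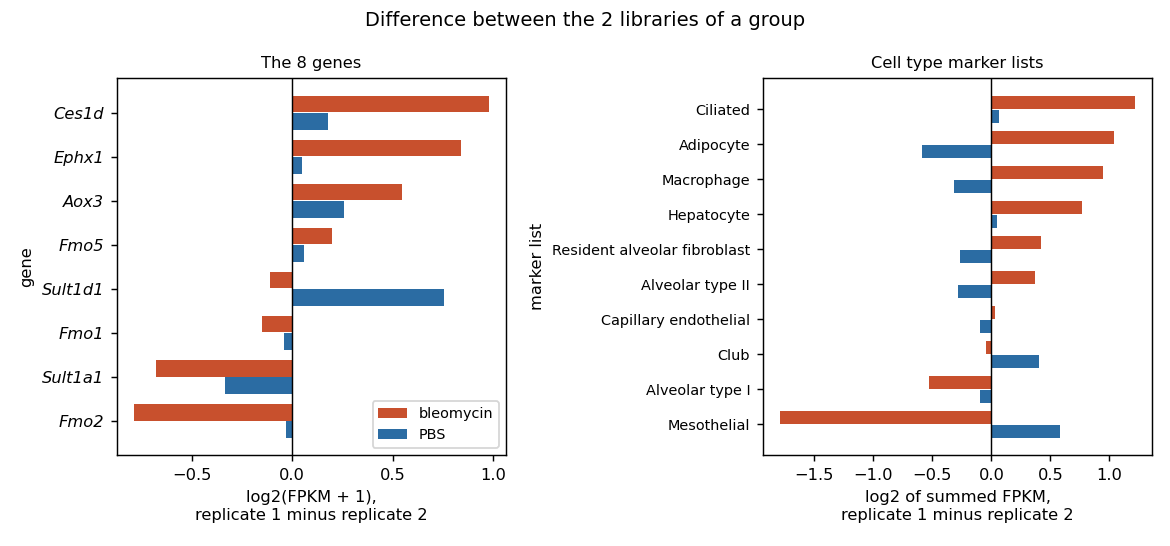
Difference between the 2 libraries of each group, replicate 1 minus replicate 2, with bleomycin in orange and PBS in blue. Left, log2(FPKM + 1) of the 8 genes; right, log2 of the summed FPKM of each marker list. The bleomycin bars run from 0.98 for Ces1d to -0.78 for Fmo2, and from 1.22 for ciliated to -1.79 for mesothelial markers.

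With PBS the levels ran from Fmo2 through Ces1d, Fmo1, Ephx1, Sult1a1, Aox3 and Fmo5 to Sult1d1, and no pair of neighbours in that order overlapped between libraries. With bleomycin the order began Fmo2, Ephx1, Ces1d and Fmo1, and the libraries of each pair of neighbours among these 4 overlapped, so their order was not resolved. Below them Sult1a1, Aox3, Fmo5 and Sult1d1 kept their order without overlap. Of all summed FPKM, the 8 genes together held 0.287% and 0.280% in the PBS libraries, against 0.109% and 0.103% in the bleomycin libraries.

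Genes with the most similar pattern over the 4 libraries were found by the Euclidean distance between log2(FPKM + 1) values centred on the PBS mean, a description over 4 points that share their libraries. Nearest to Aox3 were Hlf, a circadian transcription factor gene, Fgfr4 and the fibrinogen gene Fgg, at distances of 0.12, 0.15 and 0.16. Ephx1 lay nearest to the dendritic cell receptor gene Clec9a and to the cilium genes Ttll6 and Ccdc113, at 0.03, 0.04 and 0.05. Fmo1 lay nearest to Ear1, Chrdl1 and Ednrb, at 0.08, 0.08 and 0.15, and Fmo5 to Gsg1l, Sec14l3 and Gchfr, at 0.08, 0.08 and 0.09. Near Ces1d lay Zbtb16 and G0s2, the latter an inhibitor of triglyceride lipase, at 0.20 and 0.21, and Sult1a1 lay nearest to Ndrg2, Cyp2d22 and Selenbp1, at 0.18, 0.19 and 0.22. Fmo2 (Orm1, Chrdl1 and Scgb1c1) and Sult1d1 (Sh3rf2, Aldh1a2 and Espn) had no gene nearer than 0.345 and 0.22.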

How the data were processed

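Lung RNA of 4 libraries, 2 given PBS and 2 given bleomycin, was compared. The authors deposited FPKM values per gene, per the file headers. Per the submitters' processing notes, HISAT and Bowtie2 were used, with GRCm38 (mm10) as build; which tool quantified genes is not given in the sources used here. Since FPKM is relative to the library's total, an abundant gene lowers the others. The single row naming no gene (at most 0.000896% of a library) was dropped, and 27 gene names listed as dates or a dash were restored by transcript accession. The test was two-sided, on log2(FPKM + 1), by limma (version 3.58.1, under R version 4.3.3) with a variance trend in eBayes, checked on simulated data. Such fold changes understate the change of low genes. The residual degrees of freedom were 2 and the prior ones 2.76.

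Groups came from the sample titles. The genes and lists were chosen with earlier results of these data known. Named genes were the 8, up to 4 called genes with the largest change per enzyme list and 2 per marker list (where fewer than 2 were called, 2 with the highest mean), and the 3 nearest patterns, of which 1 is not reported here. Other list genes, among them Fmo4, Fmo6, Pon2, Mocs2, Mocos, Papss1, Papss2, Ces1b, Ces1f, Ces1g, Clic5, Lep, Eif2s3y, Ahr, Nfe2l2 and Cebpa, were chosen after their values were seen. Depth was estimated from transcripts of 300 to 1000 bases at 0.03 to 0.3 FPKM, where 75.0% to 78.1% of them came to a whole fragment, give or take 0.15. As the depth was picked to maximize that share, the share is too favourable. Lengths and shared runs come from GENCODE M21 transcripts. Alternatives were other pseudocounts, filters, scalings and eBayes settings, leaving out each library, and a block for the replicate number. Python 3.11.15, numpy 2.4.6, pandas 2.3.3, scipy 1.17.1 and matplotlib 3.10.9 were used.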

Additional observations from a re-analysis of the deposited data

How the results depend on the processing

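All 8 genes kept a negative log2 fold change in every alternative that could be fitted (Sult1d1 is not in the filter at 5 FPKM). Leaving out 1 library at a time gave 0 to 7 of the 8 called lower and 0 higher. The log2 fold changes then ranged from -1.78 to -1.63 for Fmo1, -2.20 to -1.41 for Fmo2, -1.25 to -1.05 for Fmo5, -2.14 to -1.16 for Ces1d, -1.31 to -0.47 for Ephx1, -2.13 to -1.58 for Aox3, -1.55 to -0.87 for Sult1a1 and -0.86 to -0.10 for Sult1d1. Without a PBS library the 6 calls were lost, although 6 of 8 (without replicate 1) and 7 of 8 (without replicate 2) had an unadjusted limma p under 0.05. With no filter, Ces1d (-1.65) and Sult1a1 (-1.21) were no longer called, nor was Sult1a1 (-1.21) without the variance trend. Ratios ranged on the log2 scale, bleomycin minus PBS, from -0.42 to 0.22 for Fmo2 over Fmo1, -0.97 to 0.077 for Fmo2 over Fmo5, -0.55 to -0.14 for Fmo1 over Fmo5 and -1.16 to 0.52 for Sult1a1 over Sult1d1, so 3 of the 4 turned. The other genes of the lists gave 0 to 33 lower and 0 to 6 higher without 1 library, and 1 higher (Ugdh) under quantile normalization, TPM and upper quartile scaling, against 0. All tested genes gave 0 to 3144 lower and 0 to 2402 higher. Msln, not called, was -0.19 without bleomycin replicate 2 and 1.87, then called, without replicate 1. A fit without 1 library takes its spread from the other group's pair alone, so its counts cannot be compared with those of the main fit. The cause of the remaining changes was not tested.

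In the sample titles, same-numbered libraries are linked by their number alone. Their deviations had a correlation of 0.0231 across 12986 genes, which cannot exclude a shared step that touched some genes. With the replicate block, 6 of the 8 genes were again lower and 0 higher, with 21 lower and 0 higher among the other list genes and 799 lower and 842 higher over all genes. Low levels limit Sult1d1, which rests on about 26 to 85 fragments per library.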
